A study of Rattus norvegicus with 30 samples.

Results

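Cdkn1a, Mdm2, Ccng1, Btg2, Bax and Gadd45a are target genes of the transcription factor p53, and their transcript levels were followed in cultured rat hepatocytes across 2 doses and 2 times of exposure to beta-naphthoflavone (BNF). A gene was taken where the array annotation gave a probe set its symbol and no other symbol, and where a gene had several such probe sets, the brightest on average over the 30 arrays was taken as the main one. This gave 4 of the 6 genes, with 7 probe sets among them, out of 14217 genes in all. Cdkn1a had 2 probe sets, Mdm2 had 3, and Ccng1 and Gadd45a had 1 each. Btg2 and Bax were not analysed here, since no probe set carried either symbol alone.

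The cells were primary hepatocytes of male Sprague Dawley rats, bought frozen, thawed and plated on collagen under Matrigel. They were dosed on day 3 of culture. BNF is a synthetic flavone that binds the aryl hydrocarbon receptor (AhR). Vehicle, 1 µM BNF and 100 µM BNF wells were each harvested after 24 h and after 48 h, which made 6 groups of 5 arrays. The vehicle arrays are labelled as 1% dimethyl sulfoxide. Each array came from a separate culture well. The labels do not tie wells to animals, so p-values measure the spread between wells, and the age of the rats is not given in the labels.

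The p53 protein is held at a low level in unstressed cells because Mdm2, itself a p53 target, marks it for degradation. DNA damage and other stresses release p53, which then binds its response elements and raises genes that halt the cell cycle, repair DNA or lead to cell death. Cdkn1a encodes p21, an inhibitor of cyclin-dependent kinases, and can also be raised or lowered by factors other than p53. Gadd45a encodes a stress sensor of growth arrest and DNA repair, Ccng1 encodes cyclin G1, Btg2 is an anti-proliferative gene and Bax promotes apoptosis. In the liver, Cdkn1a and Mdm2 are often read as signs of genotoxic stress, and polycyclic AhR ligands that are converted to reactive products by Cyp1 enzymes are a known source of such stress.

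The start-site windows of the 4 measured genes show how much their proximal promoters differ. RefSeq promoter sequence (GRCr8) was available for all 4, from 250 bases before the annotated start to 50 after it. Capitals mark the p53 half-site consensus and the AhR response-element core GCGTG, searched on both strands, so that the core can also read CACGC.
Cdkn1a, chr20:7150682-7150981, plus strand: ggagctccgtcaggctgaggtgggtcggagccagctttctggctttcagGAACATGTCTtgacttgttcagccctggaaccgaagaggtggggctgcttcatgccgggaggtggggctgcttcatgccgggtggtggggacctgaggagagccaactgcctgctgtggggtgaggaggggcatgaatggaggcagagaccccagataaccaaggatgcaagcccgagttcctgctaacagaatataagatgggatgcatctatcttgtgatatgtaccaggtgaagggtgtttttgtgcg
Mdm2, chr7:55200742-55201041, minus strand: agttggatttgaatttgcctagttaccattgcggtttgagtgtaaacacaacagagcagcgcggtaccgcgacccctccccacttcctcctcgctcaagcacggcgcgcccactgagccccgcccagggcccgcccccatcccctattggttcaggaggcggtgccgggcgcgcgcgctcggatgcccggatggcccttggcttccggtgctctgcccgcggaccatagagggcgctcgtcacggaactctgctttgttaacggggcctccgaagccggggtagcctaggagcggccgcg
Gadd45a, chr4:97486750-97487049, minus strand: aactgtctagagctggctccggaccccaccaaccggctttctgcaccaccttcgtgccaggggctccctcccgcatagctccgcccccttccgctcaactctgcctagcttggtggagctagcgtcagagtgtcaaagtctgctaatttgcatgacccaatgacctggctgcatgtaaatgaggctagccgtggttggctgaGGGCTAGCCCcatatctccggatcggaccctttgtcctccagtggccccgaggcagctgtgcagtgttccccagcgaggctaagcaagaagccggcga
Ccng1, chr10:25684827-25685126, minus strand: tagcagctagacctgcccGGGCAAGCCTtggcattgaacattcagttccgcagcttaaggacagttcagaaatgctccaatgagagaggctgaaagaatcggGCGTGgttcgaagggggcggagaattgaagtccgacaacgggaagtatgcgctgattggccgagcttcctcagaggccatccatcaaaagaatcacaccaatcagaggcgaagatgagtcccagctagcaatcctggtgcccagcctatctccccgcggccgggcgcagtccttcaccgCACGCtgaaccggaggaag
A match to the p53 consensus was found in 3 of the 4 windows, against 7.98% of the 33469 promoters of this length. It lay 201 bases before the start in Cdkn1a, 232 before it in Ccng1 and 48 before it in Gadd45a. The consensus reads the same on both strands, so each match counts once. The core GCGTG was found in 1 of the 4 windows, that of Ccng1 (148 bases before the start and 32 after it), against 29.7% of all promoters. The longer AhR element TNGCGTG was found in 0 of the 4 windows, against 4.89% of all promoters. The Mdm2 window held neither the p53 consensus nor the core. The p53 elements known for Mdm2 lie within an intron, outside such a window. Whether the matches in the other genes are their known p53 elements was not examined. These matches describe the letters of the windows and are not measured binding sites.

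Array signals were MAS5 values in arbitrary linear units. The median gene varied within a group with an SD of 0.19 to 0.21 log2 units, and the number of arrays limits the precision. Cyp1a1, the AhR target that checks the exposure, was higher than vehicle in all 4 comparisons, by log2 fold changes of 1.94 and 2.36 at 24 h and 1.32 and 2.50 at 48 h for 1 and 100 µM. The 9 hepatocyte markers had median signals from 6439 (Asgr1) to 74750.4 (albumin, Alb), and their sum was the highest of the marker lists on every array. The summed signal of 9 hepatocyte markers ranged from 410058 to 463872 in vehicle and 366324 to 472143 at 100 µM at 24 h. At 48 h the same sums lay between 354463 and 426821 in vehicle and between 296314 and 363828 at 100 µM. The median signals of 8 stellate cell markers ran from 32.3 (Lrat) to 750.4 (Acta2), of 5 endothelial markers from 150.3 (Pecam1) to 444 (Kdr), and of 6 lymphocyte markers from 16.5 (Cd3d) to 194 (Ptprc). The 7 Kupffer cell markers had median signals of 78.8 (Adgre1) to 987 (C1qa), and summed to 5077 to 5592 in vehicle at 24 h and 3662 to 4167 at 48 h. Of 4 cholangiocyte markers, Krt7, Krt19 and Spp1 had median signals of 11.7, 23.9 and 35.9, and Epcam had 10743. Fewer cells of a type and less RNA per cell cannot be told apart in such bulk samples.

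At 100 µM BNF the p53 targets did not move as a block. At 24 h Cdkn1a fell to 0.68 of vehicle on its main probe set, while Mdm2 rose 1.30-fold, Gadd45a rose 1.18-fold and Ccng1 (1.03-fold) was not called. At 48 h Cdkn1a was again lower (0.81 of vehicle) and Mdm2 higher (1.20-fold), and Gadd45a (1.00-fold) and Ccng1 (0.99 of vehicle) were not called. The fall of Cdkn1a was seen by 1 of its 2 probe sets, whereas the rise of Mdm2 was seen at 24 h by all 3. A gene was called at an adjusted p of 0.05 or less in limma, fitted over all 30 arrays with Benjamini-Hochberg adjustment over 14217 genes. By that rule 3 of the 4 members were called at 100 µM at 24 h, where 21.1% of all genes were called, and 2 of 4 at 48 h, where 17.4% were. At 1 µM 0 of 4 were called at 24 h (4.30% of all genes) and 0 of 4 at 48 h (0.809% of all genes). At an unadjusted p under 0.05 these were 2 of 4 and 1 of 4. The share of all genes under that looser limit, here and below, is larger and was not counted. At 1 µM and 24 h Cdkn1a, with an unadjusted limma p of 0.015, ranked 1405 of 14217 genes. Of the 9 hepatocyte markers, 3 fell at 24 h and 5 at 48 h at 100 µM, and 3 also fell at 1 µM at 24 h (0 at 48 h by limma, 2 at an unadjusted p under 0.05). None rose. The falls of Apob and Hnf4a at 24 h, and of Apob and Fgb at 48 h, were not called on their other probe sets. At 100 µM and 24 h these gave -0.13 for Apob and 0.016 and -0.18 for Hnf4a (limma adjusted p = 0.593, 0.943 and 0.459). The part of the hepatocyte markers in the members' changes was not tested. None of the 7 Kupffer cell or 6 lymphocyte markers (0 of each) was called by limma at 100 µM at either time, nor passed an unadjusted p of 0.05. At 24 and 48 h 2 and 1 of 8 stellate, 0 and 1 of 5 endothelial and 0 and 1 of 4 cholangiocyte markers fell, and none rose.

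**Figure D1:**
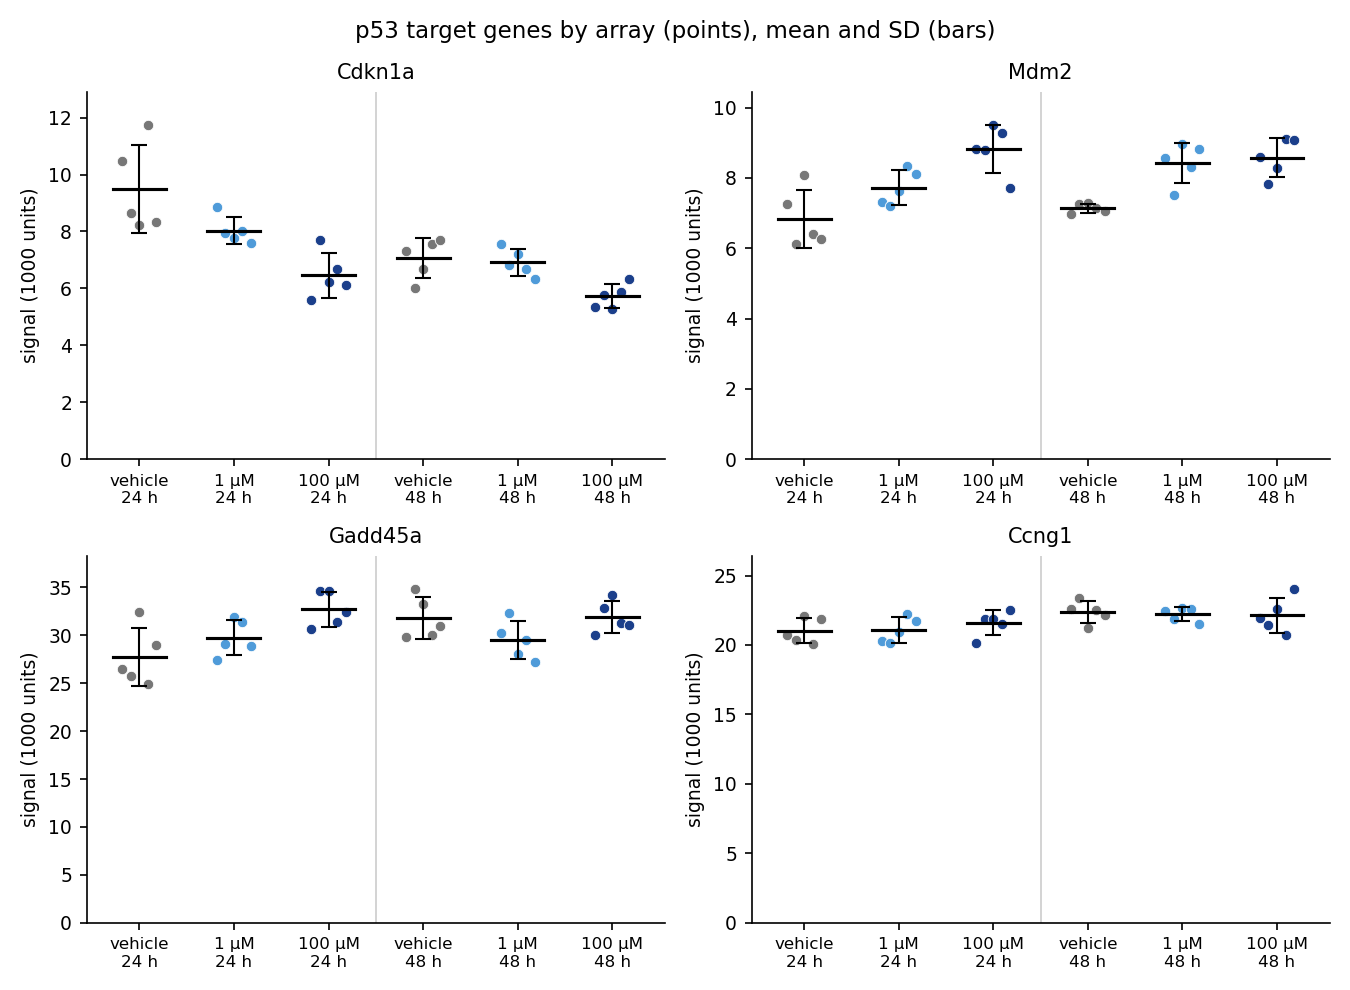
Signal of Cdkn1a, Mdm2, Gadd45a and Ccng1 (main probe set, 1000 arbitrary units, axis from 0) on each of the 5 arrays of the 6 groups, with the group mean (line) and SD (bar). Cdkn1a was lowest in both 100 µM groups, Mdm2 was lowest in both vehicle groups, and the groups of Ccng1 overlap throughout.

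Cdkn1a, the cell cycle inhibitor p21, was measured by its main probe set (1388674_at) in vehicle at 24 h as 10465.5, 8641, 8214, 11726 and 8349.55 units on the 5 arrays. At 100 µM and 24 h the arrays read 5589.65, 7711, 6208, 6671 and 6109 units. Every 100 µM array lay below every vehicle array. The share of all genes whose groups separate in this way, here and below, was not counted. The means were 9479 ± 1549 in vehicle and 6458 ± 799 at 100 µM (SD, n = 5 each). The log2 fold change was -0.55 (SE 0.088, limma adjusted p = 1.76e-05), with a 95% interval of -0.73 to -0.37. At 1 µM and 24 h Cdkn1a read 8846, 7959, 7757, 8002 and 7592 units, overlapping both the vehicle and the 100 µM arrays. That difference from vehicle was -0.23 (SE 0.088, limma adjusted p = 0.151) and was not called.

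At 48 h the Cdkn1a arrays read 7329.97, 6016, 6685, 7553 and 7718 units in vehicle. They read 7551, 6829.56, 7211, 6687 and 6329.78 at 1 µM. At 100 µM they read 5361, 5775, 5289.58, 5879 and 6335 units. The 1 µM arrays lay within the span of the vehicle arrays, and the 100 µM arrays were mostly below it, with 1 vehicle array (replicate 2) inside their range. The log2 fold change at 100 µM was -0.30 (SE 0.088, limma adjusted p = 0.0151). Without vehicle replicate 5 at 48 h it was -0.27 with an adjusted p of 0.0523, which ended the call. At 1 µM it was -0.03 (95% interval -0.20 to 0.15, adjusted p = 0.952).

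The second Cdkn1a probe set (1387391_at) gave another picture. At 24 h it averaged 3849 ± 375 units in vehicle, 4119 ± 103 with 1 µM and 3714 ± 290.3 with 100 µM. At 48 h the averages were 3794 ± 463, 3896 ± 394 and 3643 ± 362 (SD, n = 5 each). All 6 groups overlapped on it. Its log2 fold change at 100 µM was -0.05 at 24 h (95% interval -0.21 to 0.11, limma adjusted p = 0.749) and -0.06 at 48 h (-0.22 to 0.11, adjusted p = 0.729). No comparison called Cdkn1a on this probe set. The log2 difference between the probe sets on the same array was compared between groups in 5 comparisons with a two-sided exact permutation test. At 100 µM and 24 h it moved by -0.50 from 1.29 ± 0.32 in vehicle to 0.79 ± 0.22 (n = 5 each, exact p = 0.0238, adjusted p = 0.106). The adjusted p of the other 4 was 0.106 to 0.619 (exact permutation), with 0.00794 the smallest unadjusted p the design allows. Over the 30 arrays the probe sets correlated with r = 0.16, and with r = -0.18 once group means were taken out, as a description of arrays that share 1 chip design. The array annotation does not say which part of the transcript either probe set reads, and each result for Cdkn1a above and below rests on the main probe set alone.

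**Figure D2:**
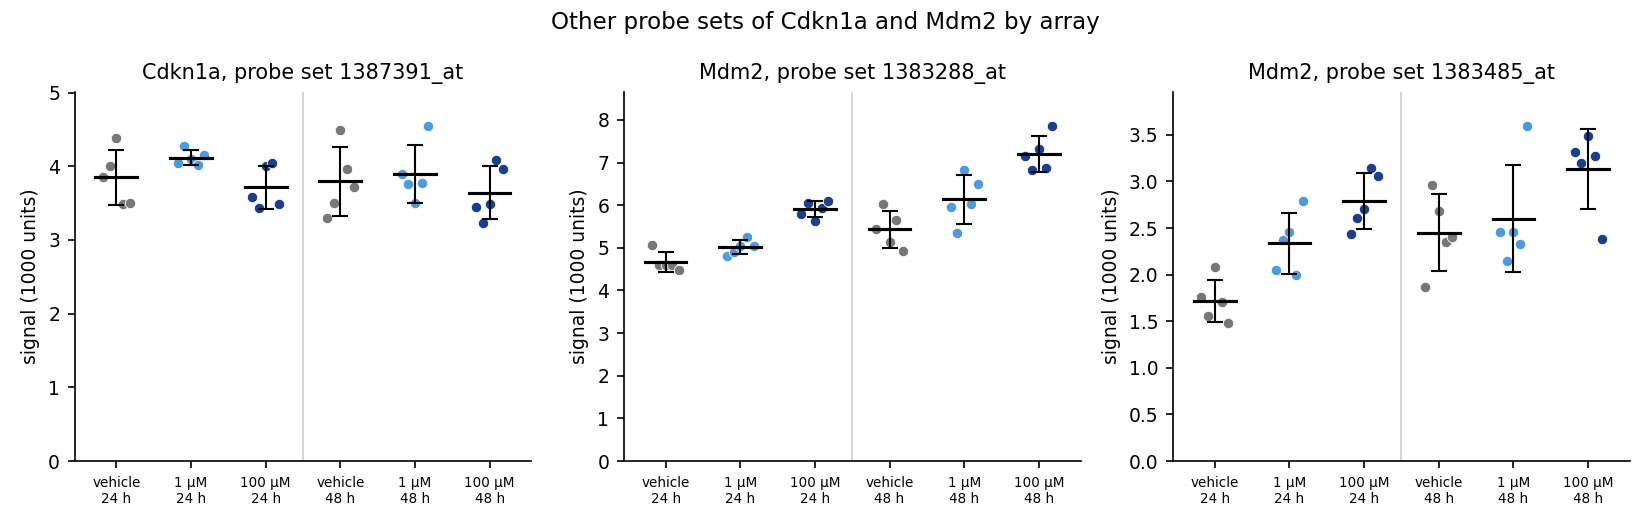
Signal of the second Cdkn1a probe set and of the other probe sets of Mdm2 (1000 arbitrary units, axes from 0) on each of the 5 arrays of the 6 groups, with group mean (line) and SD (bar). The Cdkn1a groups overlap throughout, while both Mdm2 probe sets have their lowest mean in vehicle at 24 h and their highest at 100 µM at 48 h.

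Mdm2, the ubiquitin ligase that limits p53, read on its main probe set (1384427_at) 7245, 6123, 8076, 6403 and 6257 units in vehicle at 24 h. The 1 µM arrays read 7319, 7195, 7631, 8346 and 8119.7 units. The 100 µM arrays read 8829, 8783, 9493, 9283 and 7714 units. Only vehicle replicate 3 and 100 µM replicate 5 bring the ranges of vehicle and 100 µM into overlap. The means rose from 6821 ± 827 in vehicle to 8820.4 ± 688 at 100 µM (SD, n = 5 each), a log2 fold change of 0.38 (SE 0.066, limma adjusted p = 6.42e-05). At 1 µM the change was 0.18 (SE 0.066, limma adjusted p = 0.113), which was not called, and without vehicle replicate 3 it was 0.25 with an adjusted p of 0.0156. The other 9 of 10 fits with 1 array left out did not call it (adjusted p up to 0.261).

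In vehicle at 48 h the Mdm2 arrays lay close together, at 6973, 7253, 7273, 7138 and 7063 units. At 1 µM they read 8557, 7511, 8959, 8323 and 8823 units, and at 100 µM 8595, 7813, 8271, 9110.4 and 9087. On this main probe set all 10 BNF arrays lay above all vehicle arrays. On the other probe set 1383288_at the 1 µM arrays (5351 to 6836 units) overlapped vehicle (4933 to 6027). On 1383485_at both doses overlapped vehicle. On the main probe set the log2 fold change at 100 µM was 0.26 (SE 0.066, limma adjusted p = 0.0044). At 1 µM it was nearly as large, 0.24 (SE 0.066), but its adjusted p was 0.0958 and it was not called. It was called after quantile normalization (adjusted p = 0.0438) and without 1 µM replicate 2 (log2 fold change 0.28, adjusted p = 0.0362). The other 9 of 10 fits with 1 array left out did not call it (adjusted p up to 0.223). Over the processing alternatives its adjusted p reached 0.328.

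The other Mdm2 probe sets moved the same way at 100 µM. On 1383288_at the log2 fold change was 0.34 at 24 h (SE 0.057, limma adjusted p = 3.04e-05) and 0.41 at 48 h (SE 0.057, adjusted p = 2.13e-06). On 1383485_at it was 0.70 at 24 h (SE 0.13, limma adjusted p = 0.00011), and at 48 h it was 0.36 (adjusted p = 0.0537), which was not called. At 1 µM and 24 h 1383485_at was called (log2 fold change 0.44, adjusted p = 0.0442) and 1383288_at was not (0.10, adjusted p = 0.361). At 1 µM and 48 h neither was called, at 0.08 (adjusted p = 0.881) and 0.17 (adjusted p = 0.17). All 3 probe sets correlated over the 30 arrays (r from 0.66 to 0.72), and less so with the group means taken out (r from 0.19 to 0.37).

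**Figure D3:**
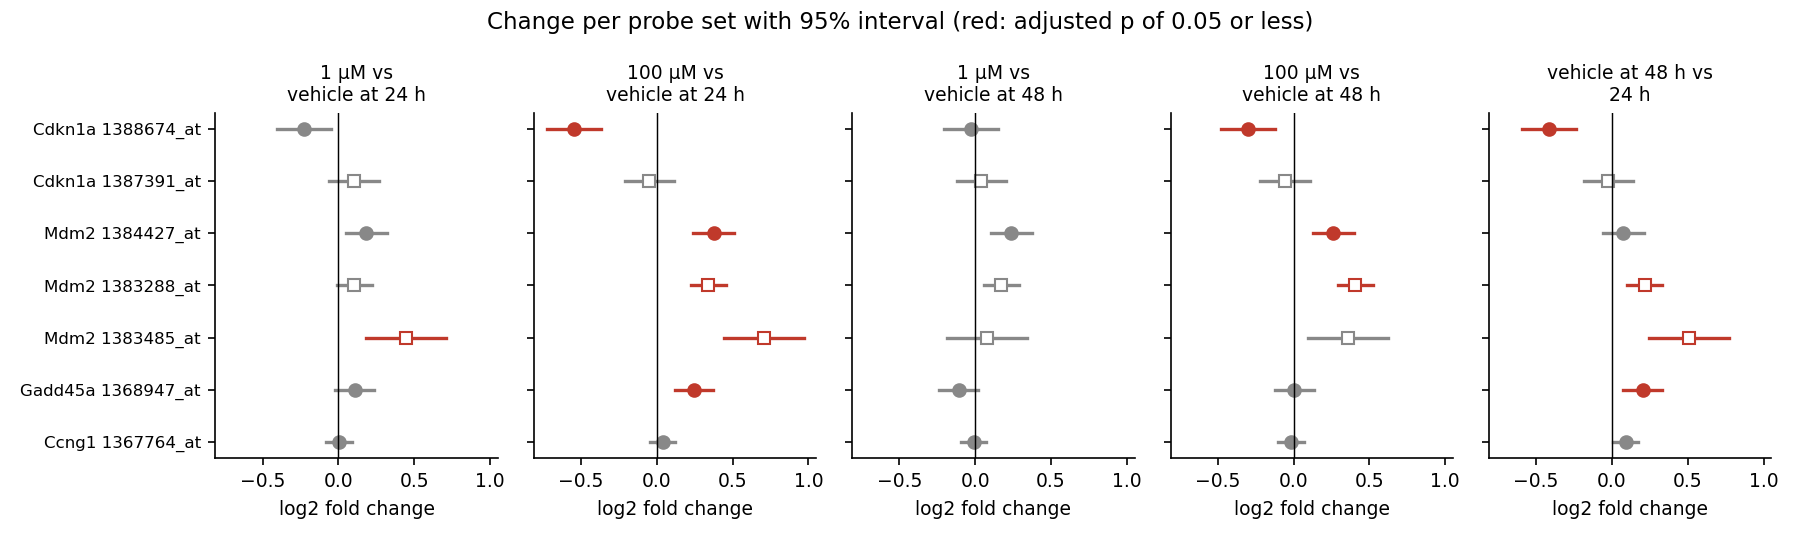
Log2 fold change (point) and 95% interval (line) of each member probe set in the 4 comparisons with vehicle and in vehicle at 48 h against 24 h. Filled circles are main probe sets, open squares are other probe sets, and red marks an adjusted p of 0.05 or less. The Cdkn1a probe sets lie at -0.55 and -0.05 at 100 µM at 24 h (adjusted p = 0.106 for their difference, exact permutation). All Mdm2 probe sets lie above 0 at 100 µM.

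Gadd45a, the growth arrest and DNA damage sensor, read 26522, 25729, 32411, 24931.5 and 28999 units in vehicle at 24 h (1368947_at). The 1 µM arrays read 27445, 29112.5, 31902, 31443 and 28943 units, and the 100 µM arrays 30643, 34621, 34626, 31352 and 32418. Vehicle replicate 3 alone reached into the range of the 100 µM arrays. The log2 fold change was 0.24 at 100 µM (SE 0.063, limma adjusted p = 0.00424), and it was 0.11 at 1 µM (adjusted p = 0.398). At 48 h vehicle read 29873, 34853, 33325, 30028.5 and 30963 units and 100 µM read 30021, 32872, 34222, 31338 and 31042.5. These spans coincided, with a log2 difference of 0.01 (95% interval -0.12 to 0.13, adjusted p = 0.971). At 1 µM and 48 h Gadd45a read 30260.4, 32363, 28099, 29499.8 and 27249.5 units, a difference from vehicle of -0.11 (adjusted p = 0.534).

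Ccng1, cyclin G1, was called in 0 of the 9 comparisons by limma, and it passed an unadjusted p of 0.05 in 1, that of vehicle over time (1367764_at). Its lowest and highest arrays were 20070.5 and 22082 units in vehicle, 20128.6 and 22249.8 at 1 µM and 20125.5 and 22541 at 100 µM at 24 h. At 48 h they were 21196 and 23404, 21487 and 22669, and 20688 and 24039 units in the same order. Each BNF group overlapped its vehicle. At 100 µM the log2 difference was 0.04 at 24 h (95% interval -0.05 to 0.12, limma adjusted p = 0.610) and -0.02 at 48 h (-0.10 to 0.07, adjusted p = 0.859), and the sign at 48 h turned under median centring and quantile normalization. At 1 µM it was 0.00 at 24 h (-0.08 to 0.09) and -0.01 at 48 h (-0.09 to 0.07), with adjusted p of 0.989 and 0.965, and either sign turned under 1 of those scalings. Changes of these sizes could not be told from 0 with 5 arrays per group.

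Between the doses, Cdkn1a was lower at 100 µM than at 1 µM by -0.32 log2 units at 24 h (SE 0.088, limma adjusted p = 0.018) and -0.27 at 48 h (SE 0.088, adjusted p = 0.033). It was the 1 member of 4 called at each time, where 7.72% and 14.0% of all genes were called. The call at 24 h was lost without 1 µM replicate 1 (adjusted p = 0.0695), 100 µM replicate 1 (0.0692) or 100 µM replicate 5 (0.0505). At 48 h it was lost without 1 µM replicates 1, 2 or 3 (0.091, 0.0554 and 0.0688) or 100 µM replicates 1 or 3 (0.078 and 0.093), and after median centring (0.0972). Mdm2 differed by 0.19 at 24 h (adjusted p = 0.0777) and 0.02 at 48 h (adjusted p = 0.878, with the sign turned after quantile normalization). Its probe set 1383288_at was higher at 100 µM at both times, by 0.24 at each (adjusted p = 0.00607 and 0.00387). Gadd45a differed by 0.14 and 0.11 (adjusted p = 0.221 and 0.269) and Ccng1 by 0.04 and -0.01 (0.741 and 0.952). The sign of the last turned after median centring.

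Between vehicle at 48 h and at 24 h, 2 of the 4 members were called, with 17.2% of all genes called. Time in culture and time with the vehicle cannot be told apart in these wells. Cdkn1a was lower at 48 h by -0.42 log2 units (SE 0.088, limma adjusted p = 0.000834), and the vehicle arrays of the 2 times did not overlap. Its second probe set differed by -0.02 (adjusted p = 0.903). Gadd45a was higher at 48 h by 0.20 (SE 0.063, limma adjusted p = 0.0222). This call was lost without vehicle replicates 1, 2 or 4 at 24 h (adjusted p = 0.056, 0.0702 and 0.0827) or replicates 2 or 3 at 48 h (0.0853 and 0.058), and with only the vehicle groups in the fit (0.0797). Mdm2 differed by 0.07 on its main probe set (adjusted p = 0.533), and by 0.22 and 0.51 on the others (adjusted p = 0.00621 and 0.00514). Ccng1 differed by 0.09 (adjusted p = 0.148). Over the same interval 4 of 9 hepatocyte markers and 3 of 7 Kupffer cell markers fell and none of either list rose. Of these, Apob, Hnf4a and Fgb were not called on their other probe sets. The part of the markers in these results was not tested.

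Whether the effects of BNF differed between 24 h and 48 h was tested directly. None (0 of 4) of the members was called for this difference by limma at 1 µM (0.0914% of all genes) or at 100 µM (0.788%). At an unadjusted p under 0.05 Gadd45a alone passed at each dose. The 100 µM effect on Gadd45a was smaller at 48 h by -0.24 log2 units (95% interval -0.42 to -0.06, adjusted p = 0.243), and the difference at 1 µM was -0.22 (-0.40 to -0.04, adjusted p = 0.433). For Cdkn1a the 100 µM effects differed by 0.25 (-0.005 to 0.50, adjusted p = 0.449), and for Mdm2 by -0.11 (-0.30 to 0.08, adjusted p = 0.71).

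In the order of group means, Cdkn1a ran from vehicle at 24 h (9479 units) through 1 µM at 24 h (8031), vehicle at 48 h (7061), 1 µM at 48 h (6921) and 100 µM at 24 h (6458) to 100 µM at 48 h (5728). Mdm2 ran from 100 µM at 24 h (8820.4) and at 48 h (8575) through 1 µM at 48 h (8435) and at 24 h (7722) to vehicle at 48 h (7140.03) and at 24 h (6821). Gadd45a was highest at 100 µM at 24 h (32732) and lowest in vehicle at 24 h (27719). For all 4 genes, neighbouring groups in the order overlapped. Over the 30 arrays Cdkn1a and Mdm2 had r = -0.59, and with the group means taken out r = -0.04. Cdkn1a and Gadd45a had r = -0.63 and -0.37 in the same way, and Ccng1 and Gadd45a 0.46 and 0.42. These describe arrays that share groups and scaling.

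Among 7107 other genes with a mean above the median of all genes, those most like Cdkn1a over the 30 arrays were Cdc42ep4 (r = 0.93), Hdac5 (0.90) and Tgm2 (0.88). For Mdm2 they were Slc25a24 (0.82), Dimt1 (0.82) and Nup62 (0.81). For Gadd45a they were Cnbp (0.80), Eif3j (0.77) and Eif2s2 (0.77), the last 2 being translation initiation factor subunits. For Ccng1 they were Bspry (0.79), Aifm1 (0.78) and Abraxas2 (0.77). With the group means taken out, r was lower for each of these 12 genes, from 0.54 (Hdac5) to 0.745 (Cdc42ep4). None of the 12 is on the lists of p53 targets used here. Those lists hold 40 measured genes besides the members, too few for this absence to tell anything.

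Other known p53 targets were also called in both directions. Of 40 measured genes on 3 lists, 9 were higher and 8 lower at 100 µM at 24 h, where 10.7% and 10.4% of all genes were. At 48 h 8 were higher and 6 lower, against 8.79% and 8.62% of all genes. Their median log2 fold changes were 0.07 at each time, against 0.04 and 0.02 for all genes. At 1 µM 4 were higher and 1 lower at 24 h (1.91% and 2.40% of all genes) and 0 and 0 at 48 h (0.288% and 0.521%; 6 passed an unadjusted p of 0.05 there).

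Of 15 targets of arrest and repair, 3 rose and 2 fell at 100 µM at 24 h, and 2 rose and 3 fell at 48 h. Rprm, a G2 arrest mediator, fell from 758 ± 88.04 units in vehicle to 218 ± 35.8 at 24 h, a log2 fold change of -1.81 (SE 0.19, limma adjusted p = 1.34e-08), and by -1.49 at 48 h. Sfn, the 14-3-3 sigma checkpoint protein, rose by 0.78 at 24 h (SE 0.099, limma adjusted p = 4.63e-07) and 0.73 at 48 h. It also rose at 1 µM at 24 h, by 0.65 (adjusted p = 0.000108), as did the stress kinase Plk3 (0.57, adjusted p = 0.0389). The kinase Plk2 rose by 0.47 and 0.40 at 100 µM, and Mgmt, which repairs alkylated guanine, fell by 0.22 and 0.24 on the log2 scale.

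Of 12 apoptosis targets, 3 rose and 2 fell at each time at 100 µM. The BH3-only gene Bid rose by 0.46 log2 units at 24 h (SE 0.087, limma adjusted p = 0.000153) and 0.61 at 48 h on its main probe set. Its other probe set gave 1.20 (adjusted p = 0.000115) and 0.56 (adjusted p = 0.0844), so that the call at 48 h rests on 1 of 2 probe sets. Aen, an apoptosis-linked nuclease, rose by 0.26 and 0.24. Perp, a desmosomal p53 effector, rose by 0.28 and 0.21 on its main probe set, but its other probe set gave -0.07 and 0.08 (adjusted p = 0.229 and 0.202). Perp was the 1 apoptosis target called at 1 µM at 24 h (0.21, adjusted p = 0.0018, with -0.09 and adjusted p = 0.211 on the other probe set). Tp53inp1, a p53-induced nuclear protein, fell by 0.20 and 0.44 on the log2 scale.

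Of 13 targets in metabolism and signalling, 3 rose and 4 fell at 100 µM at 24 h, and 3 rose and 1 fell at 48 h. Sesn1, a sestrin that restrains TORC1 signalling, fell from 3495 ± 611 to 1107 ± 148 units at 24 h, a log2 fold change of -1.65 (SE 0.14, limma adjusted p = 1.95e-10), and by -1.79 at 48 h. Its other probe set gave -0.86 and -1.26 (adjusted p = 7.42e-05 and 1.84e-07). At 1 µM and 24 h Sesn1 fell by 0.53 on the log2 scale (adjusted p = 0.025), with -0.28 and adjusted p = 0.353 on the other probe set. Gdf15, a secreted stress hormone, rose from 1618 ± 438 to 4155 ± 571 units at 24 h, by 1.40 log2 units (SE 0.16, limma adjusted p = 5.37e-08), and by 0.84 at 48 h. Cd82, a tetraspanin, rose by 0.29 and 0.26 at 100 µM and by 0.20 at 1 µM at 24 h, and Fuca1, a lysosomal fucosidase, fell by 0.16 at 24 h. Tsc2, an inhibitor of TORC1, rose at 48 h by 0.61 (SE 0.075, limma adjusted p = 2.4e-07).

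**Figure D4:**
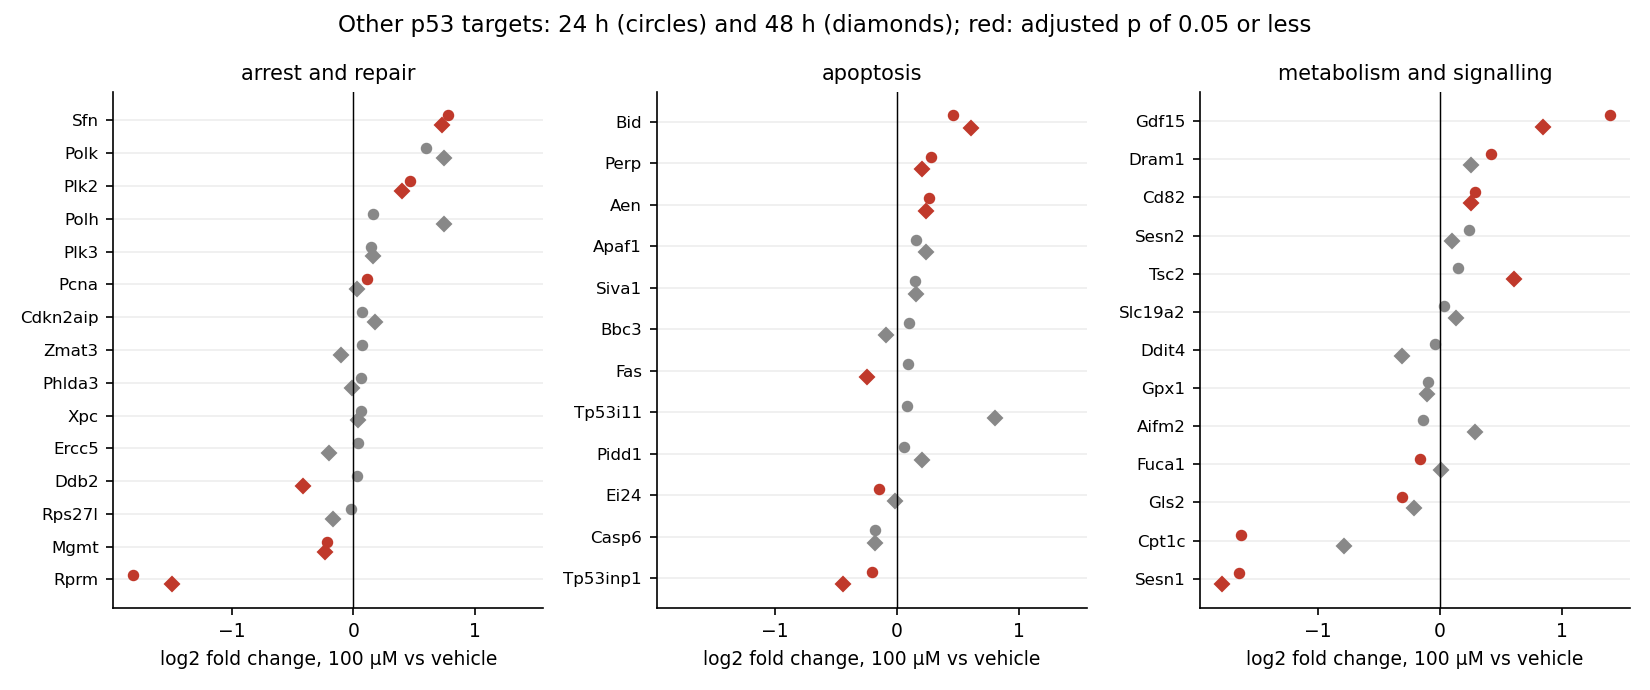
Log2 fold change of 40 other p53 targets at 100 µM against vehicle, at 24 h (circles) and 48 h (diamonds), in panels for arrest and repair, apoptosis, and metabolism and signalling. Red marks an adjusted p of 0.05 or less. Sesn1 and Rprm lie far to the left at both times and Gdf15 to the right.

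Between the doses, 2 of these 40 targets were higher and 4 lower at 100 µM than at 1 µM at 24 h (3.14% and 4.57% of all genes), and 7 and 4 at 48 h (6.57% and 7.39%). The lowest were Rprm (-1.46 and -1.53) and Sesn1 (-1.12 and -1.43), and the highest was Gdf15 (0.89 and 0.84), as log2 fold changes at the 2 times. Between vehicle at 48 h and 24 h, 11 were higher and 6 lower, with 8.64% and 8.60% of all genes called. Gdf15 (1.06), Sesn2 (0.93), Cd82 (0.73) and Plk2 (0.48) rose and Sesn1 (-1.10) and Xpc (-0.55), a nucleotide excision repair factor, fell. The other Sesn2 probe set gave -0.23 and the other Sesn1 probe set -0.36, neither called (limma adjusted p = 0.525 and 0.109).

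Regulators, repressed genes, paralogues and partners were counted at 100 µM, where 10.7% of all genes were called higher and 10.4% lower at 24 h, and 8.79% and 8.62% at 48 h. Of 15 measured regulators of p53, 0 were called by limma at 100 µM at 24 h (4 at an unadjusted p under 0.05), and 2 rose at 48 h, where Atr, a DNA damage kinase, rose by 0.83 (SE 0.19, limma adjusted p = 0.00221) and the ubiquitin ligase Cop1 by 0.47. The other Cop1 probe sets gave 0.14 and -0.08 there and were not called. Of 18 cell cycle genes that p53 represses, 1 (Mcm2, 0.35) rose and 0 fell at 24 h, and 0 were called by limma at 48 h (2 at an unadjusted p under 0.05). Some of these genes had low signals, such as Plk1 (47.6 units in vehicle at 24 h) and Mki67 (51.1). The median signal of an array was 337.8 to 429.1 units, so a fall of such genes could be missed. Among 18 paralogues of the members, 2 rose and 3 fell at 24 h and 0 rose and 5 fell at 48 h. Gadd45g fell by 0.39 and 0.58 on the log2 scale and Gadd45b by 0.24 and 0.23, where Gadd45a rose at 24 h. Btg1, an anti-proliferative relative of Btg2, fell by 0.27 and 0.26, Tob1 fell at 48 h by 0.13, and Bad, a pro-apoptotic BCL2 relative, rose at 24 h by 0.41. Of 17 partners of the members, 1 fell at 24 h and 2 at 48 h. The phosphatase subunit Ppp2ca fell by 0.49 and 0.57, but its other probe set gave 0.56 at 24 h and -0.30 at 48 h (adjusted p = 0.625 and 0.827). Map3k4, a kinase that GADD45 proteins bind, fell at 48 h by 0.25.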

How the data were processed

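The authors deposited a linear signal intensity for each probe set. MAS5 is named, without a version, in the submitters' processing notes. All 30 arrays had a mean of 1500.54 to 1500.6 after trimming 2% at each end, so a shift common to most genes is scaled away. Of 31099 probe sets, 57 controls were left out, 20826 had 1 symbol, 436 several and 9780 none. Symbols were checked against a RefSeq table (GRCr8), which 20758 matched. Each gene was its probe set of highest mean log2 signal, giving 14217 genes, 4525 of them with over 1. No column of another sample was present (0).

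The deposited intensity was log2-transformed without an added constant. A mean per group was fitted with limma 3.58.1 in R 4.3.3 (24 residual degrees of freedom, eBayes with a trend), in 9 contrasts. SE is the standard error from that fit. Permutation tests used scipy 1.17.1 in Python 3.11.15. The fit was tested on simulated data. Named genes were all members, up to 4 called genes of smallest adjusted p from each list, and the 3 genes most like each member. A few other list genes were named after seeing the data. The members and lists were chosen with earlier results of these data known. Alternatives were other scalings, a constant of 100, a filter on low genes, probe set means, array weights, another variance model, fewer groups, a block, other probe sets and each array left out. The other probe sets of list genes, the test between the Cdkn1a probe sets and the block of array sets were added after seeing the data.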

Additional observations from a re-analysis of the deposited data

Results flagged for a closer look

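On the Mdm2 probe set 1383288_at, vehicle replicate 1 at 24 h stood above the other arrays of its group, at 5075 units against 4605 for the nearest. On the Mdm2 probe set 1383485_at, 1 µM replicate 5 at 48 h was high at 3599 units against 2461 for the nearest. On the same probe set, 100 µM replicate 5 at 48 h was low at 2387 units against 3196. Such a gap is reached by chance in about 1 group in 20, and 42 groups were examined, with these 3 found. None was on a main probe set. The effect of 100 µM BNF on Tsc2 was larger at 48 h than at 24 h by 0.46 log2 units (limma adjusted p = 0.0258). That on Epcam, from the cholangiocyte list, was lower at 48 h by -0.32 log2 units (limma adjusted p = 0.00191).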

How the results depend on the processing

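The 3 members called at 100 µM at 24 h were called under all 9 processing alternatives and without each of the 10 arrays in turn, apart from Cdkn1a on its other probe set. Other counts of members called moved. At 1 µM the count rose from 0 to 1 at 24 h with probe set means and to 1 at 48 h with quantile normalization. For 100 against 1 µM it rose from 1 to 2 at 24 h without low genes and with probe set means, and fell from 1 to 0 at 48 h with median centring and with the variance model without trend. For vehicle over time it fell from 2 to 1 with only those groups fitted. With 1 array left out, the counts ranged from 0 to 1 (1 µM at each time, and 100 against 1 µM at 48 h), 1 to 2 (100 µM at 48 h, and vehicle over time) and 0 to 2 (100 against 1 µM at 24 h). Counts over all genes moved by over 1.5 times for 1 µM at 48 h (115, and 30 with only those groups, 46 to 153 with 1 array left out), for 1 µM at 24 h (612, and 406 without 1 µM replicate 3) and for the differences between times (13 against 0 to 25 at 1 µM, 112 against 174 without low genes at 100 µM). Median centring moved the share of called genes that were higher from 44.3% to 32.6% (1 µM at 24 h), 35.7% to 16.2% (1 µM at 48 h) and 47.1% to 71.7% (100 against 1 µM at 48 h). Among list genes, the sign turned with probe set means for Ppp2ca at 24 h (0.073 at 1 µM and 0.035 at 100 µM), and on other probe sets for Ppp2ca (0.39 at 1 µM, 0.56 at 100 µM and 0.17 between doses at 24 h), Cop1 (-0.079 at 100 µM and -0.32 between doses at 48 h), Perp (-0.089 at 1 µM and -0.070 at 100 µM at 24 h), Sesn2 (-0.23 in vehicle over time), Fgb (0.026 at 100 µM at 48 h and 0.46 in vehicle over time) and Hnf4a (0.13 at 1 µM and 0.016 at 100 µM at 24 h, and 0.12 in vehicle over time). None of these was called. The cause of these changes was not tested. The titles carry running numbers that form 5 sets of 6 arrays, with 1 array of each group in a set, and nothing says what a set shares. Deviations from the group means correlated above 0.1 in 1 of 75 array pairs within a set and in 1 of 300 between sets. With the set as a replicate block, the counts of members called were the same (3 and 2 at 100 µM at 24 and 48 h), and 3050 and 2572 genes were called there against 3000 and 2475. Of the genes named from lists, Map3k4 and the stellate marker Rgs5 at 100 µM at 48 h and Gadd45b in vehicle over time missed the threshold with the block (adjusted p = 0.065, 0.0598 and 0.0547), and the count of p53 regulators called at 100 µM at 24 h went from 0 to 1. No depth applies to arrays, and 5 arrays per group limit what could be called.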

Other observations

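Stress-responsive transcription factors were measured in the same fit. Of 16 at 100 µM, 5 were higher and 2 lower at 24 h, where 10.7% and 10.4% of all genes were. At 48 h 6 were higher and 1 lower, against 8.79% and 8.62% of all genes. At 1 µM 0 were called by limma at 24 h (3 at an unadjusted p under 0.05), where 4.30% of all genes were, and 1 was lower at 48 h, against 0.521% of all genes. Nfe2l2, the NRF2 regulator of antioxidant genes, rose by 0.44 log2 units at 24 h (limma adjusted p = 1.88e-08) and 0.45 at 48 h (adjusted p = 1.06e-08). At 24 h Atf4 and Atf3, of the integrated stress response, rose by 0.22 and 0.42, and Klf4 by 0.36. Ddit3, on the same list, did not rise with them, and at 48 h its mean was lower at 100 µM than in vehicle. It averaged 10290 ± 647 units in vehicle and 10170 ± 471 at 100 µM at 24 h. At 48 h it averaged 15690 ± 1093 in vehicle and 13120 ± 905 at 100 µM (SD, n = 5 each). At 48 h the immediate early gene Egr1 rose by 1.17 (limma adjusted p = 1.47e-06), the hepatocyte factor Cebpa by 0.36 and Hif1a by 0.35. The other Cebpa probe sets gave 0.30 and 0.36 (adjusted p = 0.00868 and 0.00926) and, not called, 0.18 and 0.43 (adjusted p = 0.253 and 0.214). In vehicle over time Klf4 (1.02), Ddit3 (0.61), Atf3 (0.61) and Hif1a (0.38) rose.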
